A study of Mus musculus with 8 samples.

Results

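The polo-like kinases are a small family of serine/threonine kinases, followed here through the transcripts of Plk1, Plk2, Plk3 and Plk4 in mouse embryonic stem (ES) cells treated with cisplatin. The members are these 4 genes among 17098 genes with a probe set of their own, and they are read by 5 of 28898 probe sets. Plk5, a further family gene on the array, is not among the members and is described at the end. A probe set is a group of short probes that reads 1 transcript region. Where a gene had more than 1, the leading probe set was chosen by its mean over all 8 arrays, so levels are given as a description and not tested. The family was taken up with its changes under cisplatin already known, so its p-values are not independent evidence that these genes respond.

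The cells carry an HPRT deficiency in both groups, are of strain C57BL/6 and were used at passages 19 to 22. Cells of 4 arrays were given 2.5 µM cisplatin, a platinum drug that crosslinks DNA, and those of the other 4 an equal volume of the solvent DMSO, all for 8 h. The replicates are numbered 3 to 6 in each group, and nothing says whether they were separate cultures, so a p-value here reflects the scatter of these arrays alone, possibly only technical scatter. Cells had grown on feeder cells and then on gelatin before the treatment, and total RNA was amplified and labelled by a 3′-primed method.

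All members share an amino-terminal kinase domain and a carboxy-terminal polo-box region that docks the kinase onto its substrates. Plk1 drives entry into mitosis, centrosome maturation, spindle assembly and cytokinesis, and its transcript normally peaks in G2 and mitosis. Plk4 is the kinase that starts the building of new centrioles. Plk2 and Plk3 were first found as genes induced by serum and growth factors, and both are stress-responsive. Plk2 is a known transcriptional target of p53, and in neurons it acts at synapses.

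The arrays were alike: within a group they correlated at 0.997 to 0.998 over all genes, and between groups at 0.992 to 0.995. Values are log2 expression, and the background, read from the array's control probes with 24 G/C bases, lay at 3.10. ES cell markers were present in every array, with a mean over 7 measured markers (Tdgf1 not analysed here) of 11.22 to 11.28 with cisplatin and 11.44 to 11.47 in controls, and 4 of the 7 were lower with cisplatin (Esrrb at -0.55, Zfp42 at -0.34, Nanog at -0.25 and Utf1 at -0.22, log2 fold changes; Utf1 was at -0.35 after centring). Of 10 feeder fibroblast markers 6 lay below 3.10 in both groups, and the mean over the list was 3.18 to 3.50 with cisplatin and 3.15 to 3.33 in controls. Mmp2, Thy1 and Fbln2 of that list were higher with cisplatin, by 0.60 ± 0.08, 0.61 ± 0.15 and 0.20 ± 0.05 (log2 fold change ± SE), with Fbln2 below background in both groups. The Thy1 call was lost without control replicate 3 (adjusted p = 0.0519, limma) and after a second quantile normalization (0.0524). It was also lost with the ordinary t statistic (adjusted p = 0.0773). The call of Fbln2 was lost on leaving out any of cisplatin arrays 5 and 6 or control arrays 3, 4 and 5 (adjusted p up to 0.0728, limma) and after centring (0.351). Among 8 markers of differentiated cells Krt7 was higher and Pax6 lower, by 0.41 ± 0.10 and -0.77 ± 0.16. Krt7 did not pass after centring (adjusted p = 0.06, limma), after a second quantile normalization (0.0591) or with the ordinary t statistic (0.0666). The Pax6 value depended on the probe set, with -0.38 for the mean of its 5. The part of these markers in the results below was not tested. For comparison, 11.6% of all genes passed as higher and 7.69% as lower in the test described below.

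The 4 kinases did not move together. Plk2 was 4.74-fold higher and Plk1 1.71-fold lower with cisplatin, Plk4 was 1.12-fold lower at the edge of the test's threshold, and Plk3 did not pass the test. In the limma fit across all genes, with a threshold of 0.05 on the Benjamini-Hochberg adjusted p, 19.3% of genes passed, 11.6% as higher and 7.69% as lower with cisplatin. Of the 4 members 1 was higher and 2 were lower. In bulk RNA, fewer cells of a kind and less transcript per cell cannot be told apart. This bears first on Plk1, whose transcript differs between phases of the cell cycle.

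**Figure D1:**
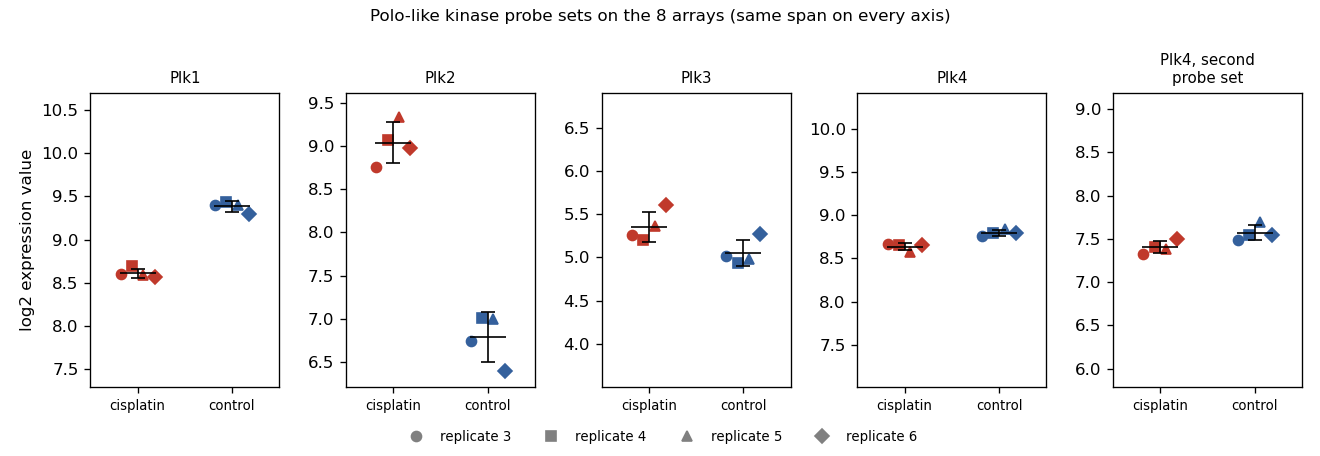
Log2 expression values of the 5 probe sets of Plk1 to Plk4 on each array, cisplatin (red) left of control (blue); the marker shape gives the replicate number, the black line the group mean and the bar the SD (n = 4). Every panel spans the same height. The groups stand clear of each other for Plk1, Plk2 and the leading Plk4 probe set, as for 24.3% of all genes.

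Plk2 had the largest change of the family. Its values were 8.76, 9.07, 9.33 and 8.98 on cisplatin arrays 3 to 6, against 6.74, 7.01, 7.00 and 6.40 on control arrays 3 to 6. Every cisplatin array lay above every control array, and 24.3% of all genes had groups that did not overlap. The gap of 1.75 between the groups was wider than the range of 0.57 within the cisplatin arrays and of 0.61 within the controls. The group levels were 9.04 ± 0.24 with cisplatin and 6.79 ± 0.29 in controls (SD, n = 4 each). The log2 fold change was 2.25 ± 0.15, with a 95% interval from 1.91 to 2.58 (adjusted p = 2.15e-05, limma). Of the 17098 genes it ranked 3 by increase, after Synm and a gene named only by a clone identifier. Leaving out any 1 array kept the change between 2.12 and 2.34.

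Plk3, the other stress-responsive member, did not pass the test. It had 5.26, 5.20, 5.36 and 5.60 on cisplatin arrays 3 to 6, against 5.02, 4.94, 4.98 and 5.27 on control arrays 3 to 6. The groups overlapped, because control array 6 lay above cisplatin arrays 3 and 4, and array 6 was the highest of each group. The difference was 0.30 ± 0.10, with a 95% interval from 0.08 to 0.52 and an adjusted p of 0.0638 (limma). It passed without control replicate 6, at 0.37 (adjusted p = 0.0264), and without dim genes (adjusted p = 0.0491). It also passed with the replicate number as a block in the fit, which is given with the other alternatives below. Centring the arrays on their medians brought the difference to 0.17 (adjusted p = 0.212) and a second quantile normalization to 0.19 (adjusted p = 0.248). Its interval ends below the start of the interval of Plk2.

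Plk1 was lower with cisplatin, with little spread. Its values were 8.60, 8.69, 8.59 and 8.57 on cisplatin arrays 3 to 6, against 9.40, 9.43, 9.40 and 9.30 on control arrays 3 to 6. Every cisplatin array lay below every control array, and 24.3% of all genes had groups that did not overlap. The gap of 0.61 was wider than the range of 0.12 within the cisplatin arrays and of 0.14 within the controls. The log2 fold change was -0.77 ± 0.05, with a 95% interval from -0.89 to -0.65 (adjusted p = 2.58e-05, limma). Only 90 genes had a larger decrease. Leaving out any 1 array kept the change between -0.80 and -0.76.

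Plk4 was slightly lower by both of its probe sets. The leading one had 8.67, 8.65, 8.57 and 8.66 on cisplatin arrays 3 to 6, against 8.76, 8.79, 8.84 and 8.79 on control arrays 3 to 6. The groups did not overlap, but the gap of 0.09 was about as wide as the range of 0.09 within the cisplatin arrays, and 24.3% of all genes had groups that did not overlap. The log2 fold change was -0.16 ± 0.05, with a 95% interval from -0.27 to -0.05 (adjusted p = 0.0488, limma). The call was lost on leaving out any 1 of the 8 arrays, with adjusted p-values from 0.0702 to 0.118. The change grew to -0.29 when arrays were centred on their medians (adjusted p = 0.00453).

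The second Plk4 probe set is one whose identifier marks probes shared by alternative transcripts of the gene. It read 7.33, 7.41, 7.38 and 7.50 on cisplatin arrays 3 to 6, against 7.49, 7.55, 7.70 and 7.55 on control arrays 3 to 6. Here the groups just overlapped, with cisplatin array 6 slightly above control array 3. In a fit over all 28898 probe sets, of which 16.3% passed, its log2 fold change was -0.17 ± 0.07 (adjusted p = 0.118, limma). The 2 probe sets thus gave nearly the same size and direction, and the second did not pass. It passed after centring, at -0.24 (adjusted p = 0.0266), and under none of the other 15 alternatives run for it.

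**Figure D2:**
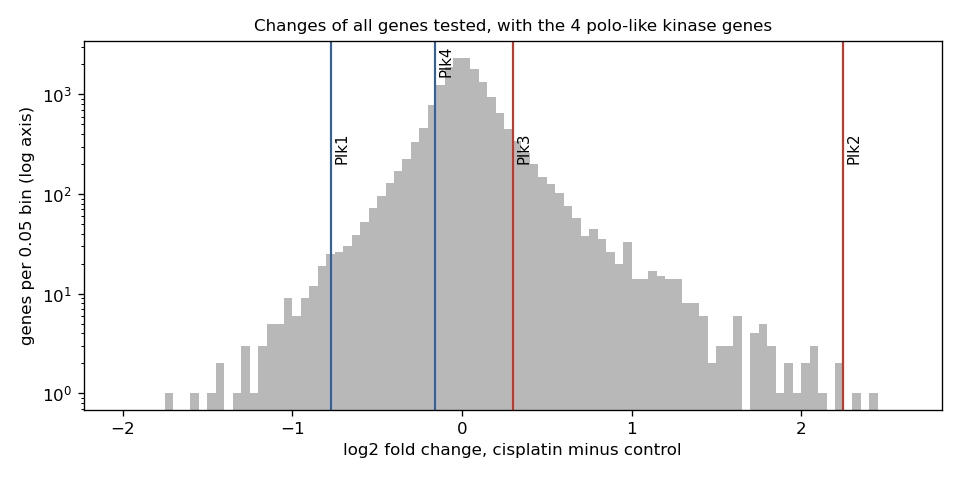
Number of genes (log axis) by log2 fold change, cisplatin minus control, in bins of 0.05 over the 17098 genes tested, with vertical lines at the 4 members (red above 0, blue below). Plk2 at 2.25 stands at the far right, Plk1 at -0.77 in the left tail, and Plk3 at 0.30 and Plk4 at -0.16 within the body of the distribution.

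Across the 4 arrays of a group the members varied by different amounts. Plk2 had an SD of 0.24 among cisplatin arrays and 0.29 among controls, against 0.05 and 0.06 for Plk1 and 0.04 and 0.03 for Plk4. Plk3 had 0.18 and 0.15. For Plk2 the lowest arrays were cisplatin replicate 3, at 0.28 below its group mean, and control replicate 6, at 0.39 below. Those deviations are small beside its change of 2.25. For Plk3 the deviations of replicate 6, 0.24 and 0.22 above the group means, are nearly as large as its difference of 0.30. They go the same way in both groups.

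Promoter windows were taken from RefSeq (GRCm38.p6) for the 4 members, 250 bases before the annotated start of each gene and 50 after it, and searched on both strands for short motifs that are background knowledge for this family. They are shown so that the starts of genes that changed in different directions can be read side by side. The genes lie at chr13:110395044-110400844 (Plk2, + strand), chr4:117128655-117133963 (Plk3, - strand), chr7:122159435-122169884 (Plk1, + strand) and chr3:40799951-40816883 (Plk4, + strand). Each sequence is printed along the strand of its gene, and capitals mark 4 motifs or their reverse complements. The core of the cAMP response element is spelled TGACG. The binding motif of Sp1, known as the GC box, is spelled GGGCGG. The motif bound by NF-Y is spelled CCAAT. The cell cycle element described after the sequences is spelled TTTGAA.
Plk2, before the start, chr13:110394794-110395043, + strand: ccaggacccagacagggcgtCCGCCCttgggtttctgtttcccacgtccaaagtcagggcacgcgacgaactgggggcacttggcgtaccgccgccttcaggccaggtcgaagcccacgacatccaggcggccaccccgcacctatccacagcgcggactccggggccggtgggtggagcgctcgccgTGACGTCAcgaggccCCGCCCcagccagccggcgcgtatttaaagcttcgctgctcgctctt
Plk3, before the start, chr4:117133964-117134213, - strand: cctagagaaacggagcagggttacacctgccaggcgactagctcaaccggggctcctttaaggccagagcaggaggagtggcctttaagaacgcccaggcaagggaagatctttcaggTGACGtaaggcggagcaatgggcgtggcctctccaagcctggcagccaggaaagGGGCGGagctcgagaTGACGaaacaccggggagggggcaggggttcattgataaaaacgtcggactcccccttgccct
Plk1, before the start, chr7:122159185-122159434, + strand: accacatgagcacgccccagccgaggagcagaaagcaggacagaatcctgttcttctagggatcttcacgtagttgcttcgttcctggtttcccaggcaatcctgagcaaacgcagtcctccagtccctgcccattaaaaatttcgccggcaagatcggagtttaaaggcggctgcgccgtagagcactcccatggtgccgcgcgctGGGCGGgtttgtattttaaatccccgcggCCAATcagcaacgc
Plk1, after the start, chr7:122159453-122159482, + strand: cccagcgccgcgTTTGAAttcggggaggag
Plk4, before the start, chr3:40799701-40799950, + strand: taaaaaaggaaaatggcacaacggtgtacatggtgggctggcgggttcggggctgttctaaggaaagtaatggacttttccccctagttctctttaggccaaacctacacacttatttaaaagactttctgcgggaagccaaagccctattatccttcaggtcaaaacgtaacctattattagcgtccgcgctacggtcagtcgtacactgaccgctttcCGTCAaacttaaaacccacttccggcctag

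The Plk2 window held the full cAMP response element TGACGTCA at -62 to -55 from the start, which contains TGACG once on each strand, and a further TGACG on the reverse strand from 22 to 26 after the start. The full element was present in 1.79% of 32851 windows of the same length, and TGACG in 20.8%. Plk3 held TGACG at -132 to -128 and at -63 to -59, and Plk4 held it on the reverse strand at -30 to -26. Plk1 did not hold this core. The GC box, present in 35.7% of windows, was found at 2 places for Plk2 and 1 place each for Plk3 and Plk1, and not for Plk4.

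Plk1 held CCAAT at -14 to -10, a motif in 37.4% of windows. It also held TTTGAA at 31 to 36 after the start, a motif in 17.9% of windows. TTTGAA is the core of the cell cycle genes homology region, an element of many genes transcribed in G2 and mitosis. Neither motif was in the windows of the other 3 members. No member's window held the p53 site, in its single-copy form, which 8.36% of windows held, or the CArG box of serum response factor, which 1.63% held. A match is a description of these letters, and a missing match says only that they are not in this window.

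The genes around the family were described by 7 lists, for comparison with the median over all genes of 0.01 on the log2 fold change scale. Of all genes 11.6% passed as higher and 7.69% as lower, the shares to set beside the list counts. Of 12 measured genes of Plk1 activation and the control of mitotic entry, 6 were lower with cisplatin, none higher and 6 did not pass, with a median of -0.20. The list also holds Wee1 and Pkmyt1, whose products restrain mitotic entry, and neither passed (-0.11 and 0.12). Aurka, the kinase that activates Plk1 by phosphorylation, was lower by -0.50 ± 0.05 (adjusted p = 0.000111, limma). Tpx2, which activates Aurka at the spindle, was lower by -0.48 ± 0.06, and Mybl2, a transcription factor of mitotic genes, by -0.53 ± 0.07, or -0.34 for the mean of its probe sets. All 3, named for the smallest p of the list, had groups that did not overlap, as did 24.3% of all genes. Their values were nearer 0 than the -0.77 of Plk1, and the difference from Plk1 was not tested.

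Of 24 partners and substrates of Plk1 at the kinetochore, spindle and midzone, 14 passed as lower and 10 did not pass, with none higher, with a median of -0.20. Ect2, the exchange factor for RhoA in cytokinesis, was at -0.60 ± 0.06 (adjusted p = 0.000178, limma), and Racgap1, a subunit of the centralspindlin complex, at -0.49 ± 0.06. Fzr1, the activator of the anaphase-promoting complex that marks Plk1 for destruction at mitotic exit, was at -0.33 ± 0.05. The mean over the 24 genes was 9.20 to 9.22 on cisplatin arrays and 9.38 to 9.40 on control arrays.

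Of the 20 measured genes of centriole duplication, the process started by Plk4, 1 was higher, 2 lower and 17 did not pass, with a median of -0.05. Over all genes 19.3% passed, so a few calls among 20 genes do not set this list apart. Ccp110, which caps the growing end of centrioles and restrains their elongation, was higher by 0.58 ± 0.06 (adjusted p = 0.000112, limma). Its level was 9.22 ± 0.08 with cisplatin and 8.64 ± 0.03 in controls (SD, n = 4 each), without overlap, as for 24.3% of all genes. Cep63, a scaffold that helps bring Cep152 to the mother centriole, was lower by -0.27 ± 0.05, and the centriolar protein gene Rttn by -0.32 ± 0.07. With centred arrays 8 of the 20 were lower, since centring takes 0.13 from the change of every gene.

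Among 5 measured substrates and partners of Plk2 and Plk3, 1 was lower and 4 did not pass. Sipa1l1, which encodes the synaptic protein SPAR that Plk2 marks for degradation in neurons, was at 5.47 ± 0.26 with cisplatin and 6.26 ± 0.05 in controls, a change of -0.79 ± 0.11 (adjusted p = 0.000877, limma). The mean of its 3 probe sets gave -0.50, which also passed. Hif1a was at -0.08 ± 0.06 (adjusted p = 0.375), and passed as lower after centring, at -0.21 (adjusted p = 0.0246). Chek2, a checkpoint kinase, was at 0.08 ± 0.06 (adjusted p = 0.401) with a sign that turned to -0.05 after centring.

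Of the 4 genes of the PIDDosome, which reports extra centrosomes to p53, Pidd1 was higher by 0.94 ± 0.20 (adjusted p = 0.0093, limma). Its level was 5.68 ± 0.08 with cisplatin and 4.74 ± 0.50 in controls (SD, n = 4 each), where the arrays were spread, and the ordinary t statistic did not pass (adjusted p = 0.0574). Cradd was at -0.32 ± 0.10 (adjusted p = 0.0511), and it passed as lower under 7 of 18 alternatives, among them centring (-0.45, adjusted p = 0.01) and a second quantile normalization (-0.42, adjusted p = 0.0207). Ankrd26, which tethers the complex to centrioles, was at 0.19 ± 0.09 (adjusted p = 0.186).

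The list of p53 targets, which leaves out Plk2, had 21 of 23 measured genes higher, none lower and 2 that did not pass, with a median of 1.12. The 3 with the smallest p were Btg2, an antiproliferative gene, at 2.22 ± 0.12, the carbonyl reductase gene Dcxr at 1.73 ± 0.11, and Cd80 at 1.16 ± 0.08. The Cd80 value depended on the probe set, and was at 0.51 for the mean of its probe sets and at -0.0093 without probe sets marked as shared between transcripts. Btg2 was the highest of the 23, beside the 2.25 of Plk2. Of 21 measured immediate early genes, the class in which Plk2 and Plk3 were first placed, 7 were higher, 1 lower and 13 did not pass, with a median of 0.08. Among the 21, 3 lay below the background of 3.10 in both groups. Fos rose by 1.34 ± 0.18 and Jun by 1.03 ± 0.13, subunit genes of the AP-1 factor, and the nuclear receptor gene Nr4a1 by 0.45 ± 0.06. The mean of the Jun probe sets gave 0.68. Klf6, the lower one, was at -0.38 ± 0.10 (adjusted p = 0.0198, limma) and lost its call under 7 of 19 alternatives. These were leaving out cisplatin replicate 6 or control replicate 3, 4 or 5 (highest adjusted p = 0.0577, limma) and the most variable probe set (0.0503). The others were the ordinary t statistic (adjusted p = 0.0671) and the threshold of 0.01.

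**Figure D3:**
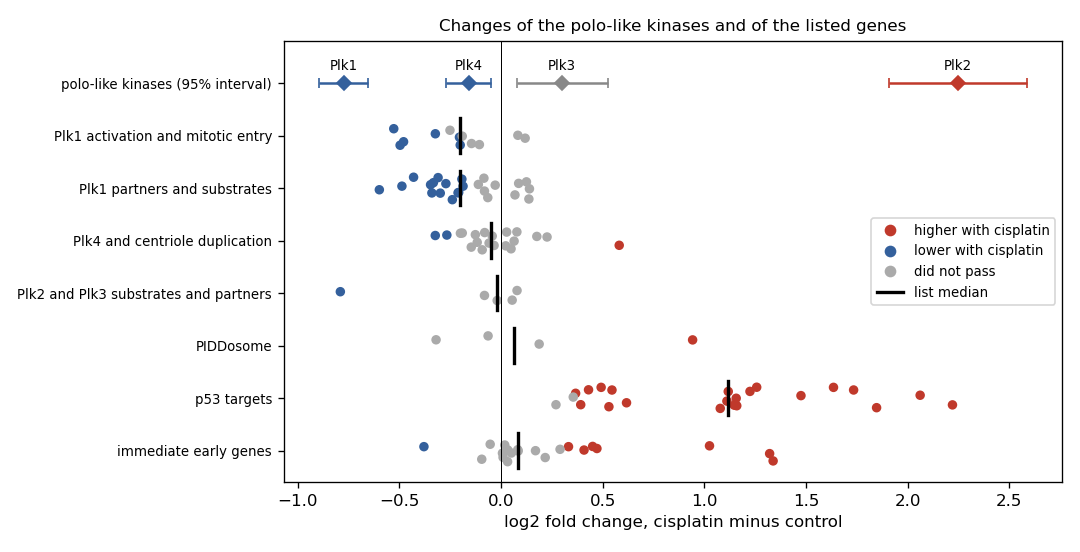
Log2 fold changes, cisplatin minus control, of the 4 members (diamonds, bars are 95% intervals) and of the measured genes of the 7 lists (points, coloured by the limma test at 0.05; black bars are list medians). The Plk1 lists lie mostly left of 0 with Plk1 beyond their lowest gene, and the p53 targets lie right of 0 with Plk2 beside the highest.

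The genes whose pattern was most like each member were found by Pearson's r with its leading probe set over the 8 arrays, among 15435 genes. The 8 points form the 2 treatment groups, so r mainly follows the difference between groups, and it is given as a description. For Plk2 the closest were Dixdc1, Cpt1c, Nkx2-9, Mdm2 and Gltp, all with r = 0.998. Mdm2, whose product targets p53 for degradation, was at 9.76 ± 0.15 with cisplatin and 8.28 ± 0.24 in controls. The most opposite were Zfp462, Ambra1 and Fbxo5, at -0.999, -0.996 and -0.996. Fbxo5 encodes Emi1, an inhibitor of the anaphase-promoting complex that Plk1 marks for destruction, and its change was -0.24 ± 0.05, or -0.37 after centring.

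For Plk1 the closest were Msi2, Fkbp5, Dip2c, Ppp1cc and Aff1, with r between 0.994 and 0.996. Their changes had very different sizes, from -1.11 ± 0.07 for the RNA-binding protein gene Msi2 to -0.12 ± 0.04 for Ppp1cc. Ppp1cc, a catalytic subunit gene of protein phosphatase 1, did not pass as reported and passed after centring (-0.25, adjusted p = 0.00525, limma). At -0.12 it also passed without dim genes (adjusted p = 0.0426, limma) and with variances fitted to an intensity trend (0.00101). The ordinary t statistic passed as well (adjusted p = 0.00066). For Aff1 the mean of the probe sets gave -0.56, against -0.87. The most opposite were Tor1b, Gpx6 and Mrnip at -0.996, -0.996 and -0.995. For Plk4 the closest were Carmil1, Pik3cb, Kif5b, Srpk2 and Nectin3, from 0.989 to 0.979, and the most opposite Ankrd23, Mcrip1 and Chga, at -0.990, -0.987 and -0.985.

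Plk3 had fewer close matches. Rnf185, Pex11a, Slc27a4, Hexim1 and Slc25a46 had r from 0.974 to 0.960, and Rabep1, Cemip2 and Vwa8 had -0.973, -0.972 and -0.970. Only 14 genes had r above 0.95 with Plk3, against 497 with Plk2, 348 with Plk1 and 107 with Plk4. Of the 5 closest to Plk3, Hexim1, an inhibitor of the elongation factor P-TEFb, had the largest change, at 0.38 ± 0.09, which did not pass after centring (0.25, adjusted p = 0.0625, limma).

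**Figure D4:**
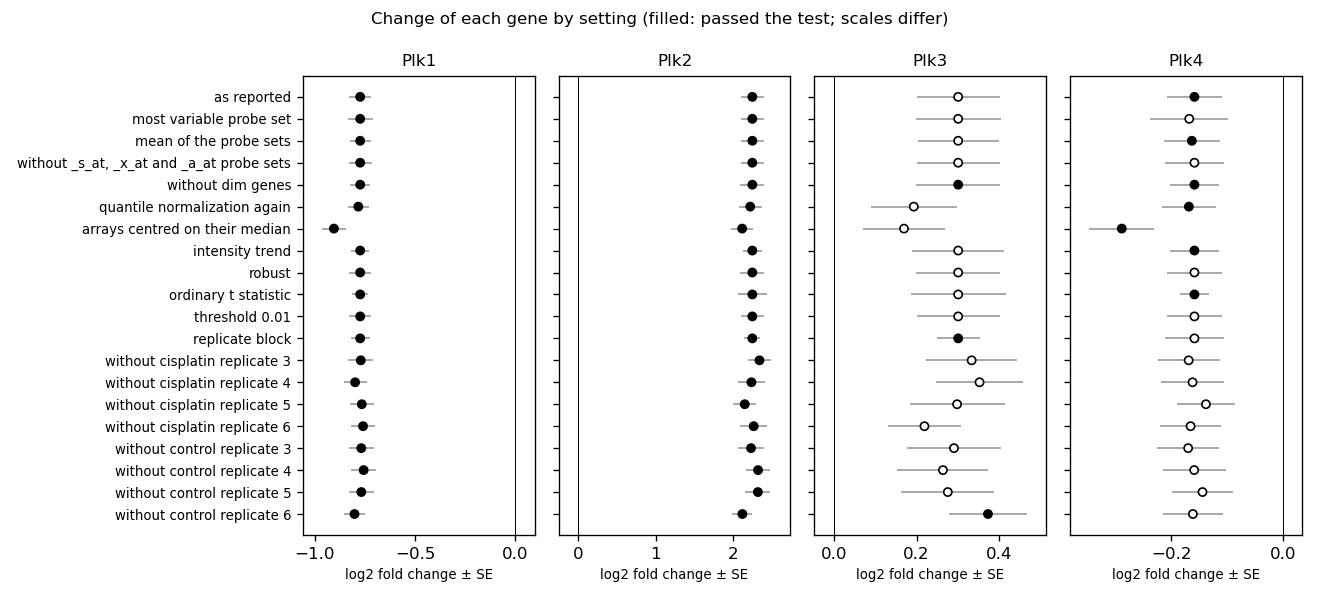
Log2 fold change ± SE of each member (cisplatin minus control) under every setting; filled points passed the test and open points did not, and the scales differ between panels. Plk1 and Plk2 passed in all 20 settings including the reported one, Plk3 in 3 and Plk4 in 7.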

How the data were processed

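The deposited values are log2 expression, 1 column per array. The submitters' processing notes name RMA and limma without a version. RMA includes a normalization between arrays, which assumes that most transcripts keep their level. Of 45141 probe sets, 104 controls, 551 with several genes and 15588 with none listed were left out. Symbols were updated through Entrez identifiers in a RefSeq table of GRCm38.p6, which held 16937 of 17098 genes. A linear model with treatment alone was fitted to every gene (lmFit and eBayes, limma 3.58.1, R 4.3.3), and p-values were adjusted over all genes after Benjamini and Hochberg, with a threshold of 0.05. The procedure was tested on simulated data. No filter on dim genes was used. Group levels are mean ± SD over 4 arrays, which limit the precision.

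Members and lists were chosen with earlier results of these data known. The text names the members, the 3 genes of each list with the smallest p, called genes where 5 or fewer of a list passed in a direction, and per member the 5 genes with the highest and the 3 with the lowest r, skipping predicted genes and clones. Lists were described by counts and medians. Some genes of the lists were not analysed here. Alternatives covered the probe set, dim genes, normalization, centring, test settings, the threshold, the replicate number and single arrays left out. Plots used Python 3.11.15 and matplotlib 3.10.9.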

Additional observations from a re-analysis of the deposited data

Results flagged for a closer look

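Among 136 groups of 4 arrays, for 68 named genes, 5 had 1 array far from the other 3, where chance gives about 5% of groups; none of them belonged to Plk1 to Plk4. Control replicate 5 of Plk5 was at 4.2154, against 4.8912 to 4.9294 on the other controls. Cisplatin replicate 3 of Chek2 was at 8.0493, against 8.1428 to 8.1561. Control replicate 6 of Fos was at 4.7618, against 5.4126 to 5.5196. Control replicate 5 of Ppp1cc was at 12.321, against 12.310 to 12.311, and control replicate 6 of Cemip2 at 8.5208, against 8.6814 to 8.7051.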

How the results depend on the processing

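Plk1 and Plk2 kept their direction and passed the test under all 19 alternatives, with changes from -0.90 to -0.76 and from 2.12 to 2.34. Each has 1 probe set, so the probe set alternatives, like the test settings, could move only their p-values and not these changes. Plk3 passed under 3 of 19: without dim genes and with the replicate block (0.30 in both), and without control replicate 6. Its values ran from 0.22 to 0.37 when single arrays were left out. Plk4 passed under 6 of 19. It did not pass with the most variable probe set (-0.17), without shared probe sets (-0.16), with robust variances, at a threshold of 0.01 and with the replicate block (-0.16 in each), or on leaving out any array (-0.17 to -0.14). The adjusted p with the replicate block was 0.0104 for Plk3 and 0.0857 for Plk4. Deviations from the group means correlated between same-numbered arrays at 0.199, 0.181, 0.2 and 0.0649 for numbers 3 to 6. The last value was low and the labels do not say that a number marks a shared culture or day. The numbers were therefore not taken as pairs. The block moved the count of genes called to 3447, against 3303, and each of the 4 cisplatin arrays correlated best with the control array of its own number, a hint from the data and not from the design. The count of genes called was 5012 with centred arrays, of which 21.7% were higher against 60.2% as reported, and 1855 at a threshold of 0.01. For probe sets it was 2548 at that threshold, against 4708. Centring lowers the change of every gene in the fit over genes by 0.13 by its construction, and the cause of the other differences was not tested. Directions turned among named genes: Cd80 to -0.0093 without shared probe sets, and Chek2 and Slc25a46 to -0.0519 and -0.0436 after centring. Over all alternatives the lower genes numbered 3 to 10 in the mitotic entry list, 9 to 17 among Plk1 partners, 1 to 8 in the centriole list, 1 to 2 among substrates of Plk2 and Plk3, 0 to 2 in the PIDDosome and 0 to 1 among immediate early genes. The higher ones numbered 0 to 2 among Plk1 partners, 1 to 2 in the centriole list, 0 to 1 in the PIDDosome, 19 to 22 among p53 targets and 5 to 9 among immediate early genes.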

Other observations

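Plk5, the remaining family gene on the array and not among the members, encodes a protein that in mouse is mainly known from neurons and lacks much of the kinase domain in human. It lies at chr10:80356459-80365489 (GRCm38.p6). Its values were 5.09, 5.47, 5.24 and 5.12 on cisplatin arrays 3 to 6, against 4.93, 4.89, 4.22 and 4.89 on control arrays 3 to 6. The groups did not overlap, as for 24.3% of all genes, and control array 5 lay well below the other controls. The difference was 0.50 ± 0.16, with a 95% interval from 0.14 to 0.85 and an adjusted p of 0.053 (limma). Centring brought it to 0.36 (adjusted p = 0.0967). Without control replicate 5 it was smaller, at 0.32 ± 0.09, and passed (adjusted p = 0.0453). Plk5 passed under 6 of the 19 alternatives, that one included, and over all 19 the adjusted p ran from 0.0243 to 0.149.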
